A study of Mus musculus with 6 samples.

Results

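Type I interferon-stimulated genes are described here in splenic endothelial cells of mice treated with an antisense oligonucleotide (ASO) against Mlkl. They are a list of 35 gene symbols, matched by name with no threshold on a measured value, and all 35 were found among the 23207 rows of the deposited count table. The RNA came from Apoe-knockout mice. Without apolipoprotein E such mice clear lipoproteins poorly and become hypercholesterolaemic on a diet rich in cholesterol. For 8 weeks on a high cholesterol diet, 3 mice (1601, 1602 and 1608) received a control ASO and 3 mice (1603, 1604 and 1607) an ASO directed against MLKL, with 1 library per mouse. An ASO is a short strand of modified nucleic acid designed to bind 1 messenger RNA and reduce it, and Mlkl encodes the pseudokinase that breaks the plasma membrane in necroptosis. Both groups share the Apoe deletion, the diet and treatment with an ASO, so no mouse was without one. The strain background, the sex and age of the mice, and the way the endothelial cells were isolated, are not stated in the labels.

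Type I interferons bind the receptor chains IFNAR1 and IFNAR2, whose kinases TYK2 and JAK1 phosphorylate transcription factors such as STAT2. With IRF9, STAT2 takes part in the complex ISGF3, which binds interferon-stimulated response elements (ISREs) in promoters and switches on genes that sense viral RNA, block translation, degrade RNA or tag proteins with ISG15. Endothelial cells carry the receptor, and macrophages and plasmacytoid dendritic cells of the spleen are known producers of the cytokine.

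Levels are given in CPM, the estimated counts of a gene per 1000000 counts of its library after TMM scaling, which corrects for differences in library composition. Totals ran from 59988846 to 87776706 estimated counts. Mlkl measured 30.1, 31.5 and 38.7 CPM in control mice 1601, 1602 and 1608, and 7.52, 5.80 and 3.73 CPM in mice 1603, 1604 and 1607, so that every MLKL ASO mouse lay below every control mouse. Its log2 fold change (MLKL ASO minus control ASO) was -2.56 with a standard error (SE) of 0.27, which edgeR's quasi-likelihood test placed at an adjusted p of 0.0666 and DESeq2 at an adjusted p of 2.11e-15. On the first principal component control mouse 1608 stood apart, at 90.8 against 17.1 or less in the other mice. All 12 endothelial markers were detected in every library, among them Cdh5 (VE-cadherin) at 105 to 240.1 CPM and the sinus endothelial receptor Stab2 at 511 to 1020.1 CPM. Markers of blood cells had reads in every library too, with none listed at 0, and sums of their levels are given beside some of the results. In bulk RNA, fewer cells of a type and less RNA per cell cannot be told apart.

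Most of the 35 listed interferon-stimulated genes were higher in MLKL ASO mice, by small folds. The list was chosen with earlier results of these data known. Among 76 further interferon-stimulated genes, 38 log2 fold changes were above 0 and 38 below, with a median of 0.0042. Of the 35 genes, 27 had a log2 fold change above 0, where 48% of all 19741 genes tested did, and their median was 0.23 against -0.016 over all genes. In 15 of the 35, all MLKL ASO mice lay above all control mice, a pattern found in 8.73% of all genes tested, and in 1 (Stat2) all lay below, found in 10% of all genes. The 15 were Rtp4, Ifit1, Ifit2, Ifit3, Ifih1, Eif2ak2, Xaf1, Usp18, Oasl2, Oas1a, Ifi44, Isg15, Herc6, Rsad2 and Samd9l. Past an adjusted p of 0.05 in edgeR's quasi-likelihood test, with adjustment over all genes, there were 0 members in either direction, the lowest adjusted p being 0.237 for Rtp4. In the whole table that test called 1 gene higher (0.00507% of those tested) and 1 lower (0.00507%). At an unadjusted p under 0.05, 13 members were higher, where 4.86% of all genes were, and 2 were lower (Stat2 and Mx1), where 7.13% were. The count of lower members at that threshold was 0 with RLE, upper quartile or no scaling beyond library totals, with a filter of at least 1 CPM in 3 libraries, and without mouse 1603 or 1604. DESeq2 called 2 members, Rtp4 and Ifit3, as higher (1.09% of the genes it tested were called higher) and 0 as lower (1.33%), and limma-voom with sample weights called 0 (0.0456% of all genes higher and 0.076% lower). In the authors' deposited table the same 2 members passed, Rtp4 with a log2 fold change of 0.62 (adjusted p = 0.00721) and Ifit3 with 0.54 (adjusted p = 0.0371), where 0.879% of its genes were higher and 0.941% lower.

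**Figure D1:**
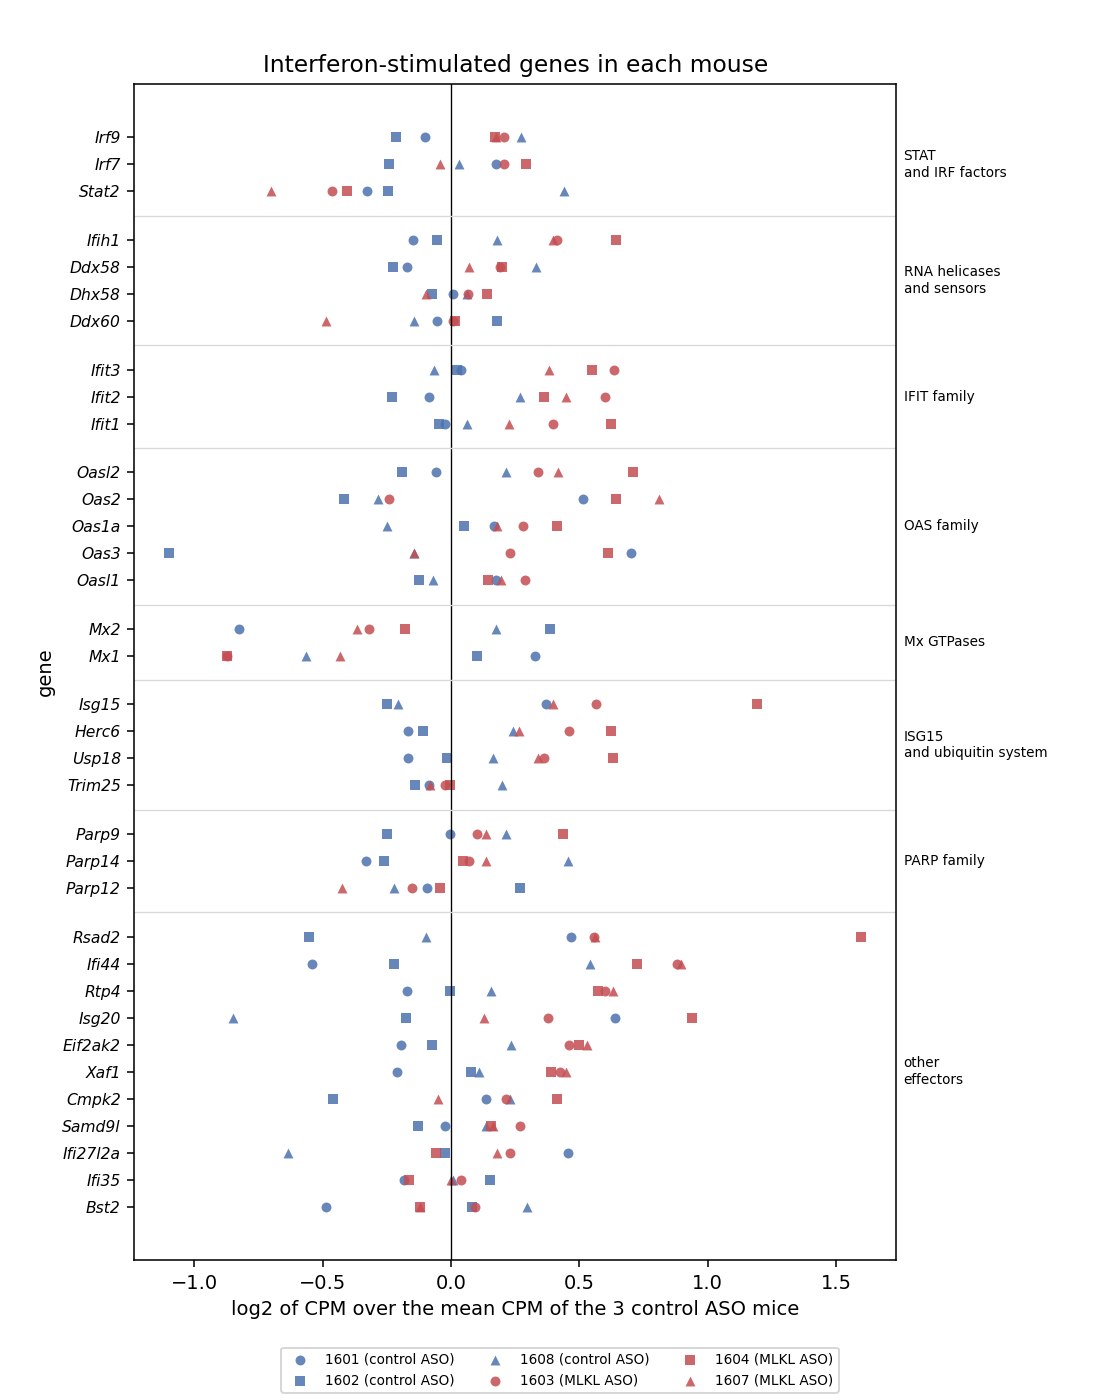
Level of each of the 35 genes in each mouse, as log2 of its CPM over the mean CPM of the 3 control mice, with 1 point per mouse (blue, control ASO; red, MLKL ASO). The red points lie to the right of all blue points for 15 genes and to the left for Stat2.

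The promoters show which DNA letters these genes share. The list is of genes that interferon switches on, in part through ISREs, so it was not independent of this property. Promoter sequences, from 250 bases before to 50 after the transcription start, come from RefSeq (GRCm38.p6), and 26 of the 35 genes matched by symbol; Dhx58, Oas2, Mx1, Mx2, Usp18, Parp9, Parp14, Ifi27l2a and Rtp4 did not. The core ISRE was searched on both strands as GAAA, any 2 bases, and GAAA again, and matches may overlap each other. It stood in 12 of the 26 genes (Stat2, Ddx58, Ifih1, Ddx60, Ifit1, Ifit3, Oas1a, Oas3, Isg15, Rsad2, Bst2 and Eif2ak2), against 3.99% of the 27025 genes and 3.44% of the 32851 promoter windows in the table. Of these 12 genes, 7 were among those with all MLKL ASO mice higher, Stat2 was lower, and 4 overlapped between the groups. Of the 14 matched genes without it, 6 had all MLKL ASO mice higher. Over all genes tested, 8.73% had all MLKL ASO mice higher and 10% all lower. The interferon-γ-activated site (GAS), searched as TTCNNNGAA, which reads the same on both strands, was found in 6 of the 26 (Ifit2, Oas1a, Bst2, Eif2ak2, Isg20 and Ifi35) and in 9.55% of all genes; in Bst2 it overlaps the first ISRE match. A match describes letters only and does not show binding. The stretches below hold the matches of 4 genes that were higher in every MLKL ASO mouse (Isg15, Ifit1, Ifit3 and Rsad2), of Stat2, which was lower, and of Bst2, whose groups overlapped. They are written 5′ to 3′ in the direction of the gene, with the ISRE letters in capitals and 10 bases on either side.
Isg15 (minus strand, chr4:156200865-156200906): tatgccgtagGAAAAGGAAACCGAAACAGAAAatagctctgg
Ifit1 (plus strand, chr19:34640775-34640823): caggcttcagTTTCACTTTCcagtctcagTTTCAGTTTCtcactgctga
Ifit3 (plus strand, chr19:34583363-34583426): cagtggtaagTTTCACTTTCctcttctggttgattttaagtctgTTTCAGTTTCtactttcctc
Rsad2 (minus strand, chr12:26456553-26456582): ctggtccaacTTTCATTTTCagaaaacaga
Stat2 (plus strand, chr10:128270266-128270295): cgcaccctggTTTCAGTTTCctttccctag
Bst2 (minus strand, chr8:71537577-71537612): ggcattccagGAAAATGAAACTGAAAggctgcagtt
Isg15 carries 3 overlapping matches, which begin 78, 72 and 66 bases before its start. Ifit1 has 2, at 104 and 85 bases before the start, and Ifit3 has 2, at 156 and 122. The single match of Stat2 lies farthest out, 222 bases before its start. Rsad2 has 1, at 120 bases, and Bst2 has 2 that overlap, at 130 and 124 bases.

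Of the factors that drive these genes, Stat2 was lower in MLKL ASO mice while Irf9 and Irf7 overlapped between the groups. Stat2, the STAT that brings the transactivation domain to ISGF3, measured 47.0, 49.7 and 80.1 CPM in control mice 1601, 1602 and 1608. In mice 1603, 1604 and 1607 it measured 42.7, 44.5 and 36.3 CPM. Every MLKL ASO mouse lay below every control mouse, with a narrow gap to mouse 1601 and a wide one to mouse 1608. The log2 fold change was -0.52 (SE 0.22, edgeR adjusted p = 0.415), and without mouse 1608 it was -0.24. Irf9, the DNA-binding partner in ISGF3, measured 124, 115 and 161 CPM in the control mice against 154, 150.0 and 150.4 CPM in the same order of MLKL ASO mice. Control mouse 1608 held the highest Irf9 level of all, as it did for Stat2. For Irf7, the factor that amplifies interferon gene transcription, the control values were 123, 91.9 and 111 CPM and the MLKL ASO values 125, 133 and 105 CPM. These overlap, with log2 fold changes of 0.18 (95% interval -0.16 to 0.52) for Irf9 and 0.16 (-0.19 to 0.51) for Irf7.

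Upstream of these factors, 10 receptor and kinase genes, 21 sensing genes (of 23 listed) and 9 feedback inhibitors were in the table, and 0 in any of these lists passed in edgeR. Receptor and kinase genes had 7 of 10 log2 fold changes below 0 and a median of -0.17, where 48% of all genes were above 0. At an unadjusted p under 0.05, 3 were lower (7.13% of all genes were) and 0 higher (4.86%). In DESeq2 and limma-voom 0 passed the threshold. Ifnar1 overlapped between the groups (87.0 to 100.2 CPM in control and 86.1 to 93.1 CPM in MLKL ASO mice). Ifnar2 did not, at 52.3 to 66.1 against 44.2 to 51.9 CPM. The kinase gene Tyk2 measured 15.1, 13.4 and 11.3 CPM in control mice 1601, 1602 and 1608 and 8.21, 9.80 and 7.94 CPM in mice 1603, 1604 and 1607, so that every MLKL ASO mouse was lower (log2 fold change -0.62, SE 0.18, edgeR adjusted p = 0.339). Its partner Jak1 was also lower in every MLKL ASO mouse, with 376 to 423 CPM against 439.6 to 541 CPM in control mice. Ifngr1, a chain of the receptor for interferon-γ, measured 256 to 321 CPM in control and 219.8 to 235 CPM in MLKL ASO mice.

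Feedback inhibitors had 8 of 9 log2 fold changes below 0 and a median of -0.14, where 48% of all genes were above 0. At an unadjusted p under 0.05, 3 were lower (7.13% of all genes were). DESeq2 called 2 of them lower (1.33% of the genes it tested were), while limma-voom called 0. Socs1, which binds and inhibits the receptor's kinases, measured 22.1, 15.1 and 18.5 CPM in control mice and 8.57, 8.56 and 7.27 CPM in MLKL ASO mice. The groups are well apart, with a log2 fold change of -1.19 (SE 0.19), an edgeR adjusted p of 0.157 and a DESeq2 adjusted p of 1.32e-05. Socs3, another member of that family, measured 57.2 to 115 CPM in control and 27.7 to 35.1 CPM in MLKL ASO mice (DESeq2 adjusted p = 0.0044). It is also an immediate early gene, and the 22 immediate early and dissociation genes listed were lower in sum in every MLKL ASO mouse, at 8050.6 to 10826 CPM against 13610 to 16842 CPM. The part of that difference in the values of Socs1 and Socs3 was not tested. Irf2, a repressor that competes with activating IRFs, measured 86.9 to 101 CPM in control and 71.1 to 79.1 CPM in MLKL ASO mice. Usp18, an inhibitor that is itself among the 35 genes, had a log2 fold change above 0, and its values are given with the ISG15 system.

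**Figure D2:**
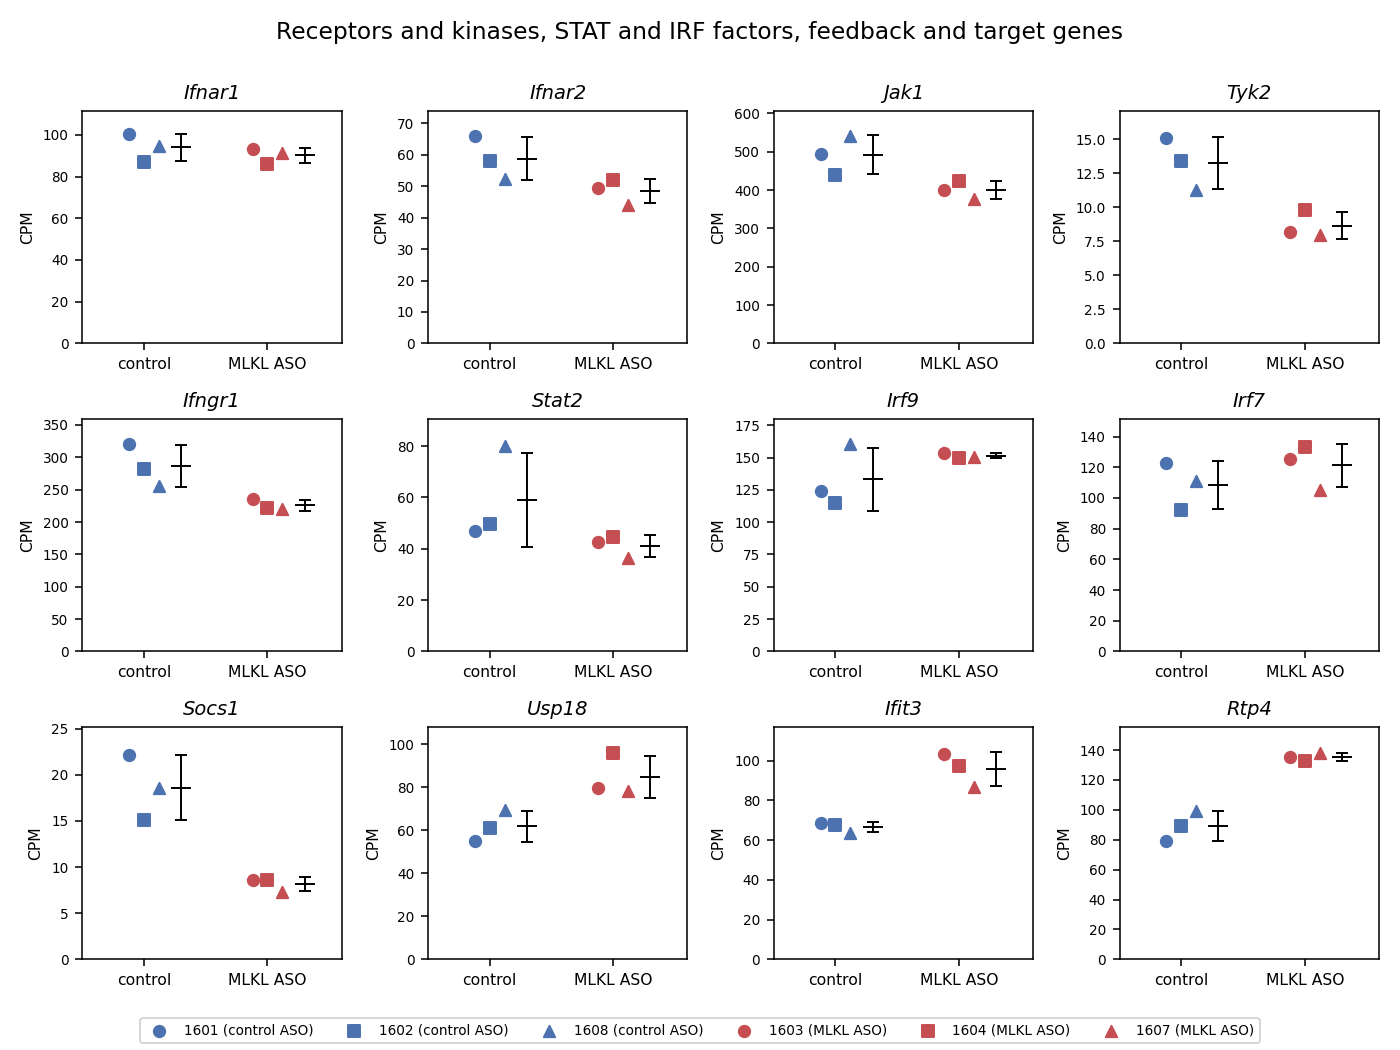
CPM of 12 genes of the pathway in each mouse, with 1 panel per gene, points for mice, and a black dash and bar for the mean and SD of the 3 mice of a group. Tyk2, Stat2 and Socs1 lie lower in all MLKL ASO mice, while Usp18, Ifit3 and Rtp4 lie higher.

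Sensing and induction genes had 15 of 21 log2 fold changes below 0 and a median of -0.23, where 48% of all genes were above 0. At an unadjusted p under 0.05, 4 were lower (7.13% of all genes were) and 0 higher (4.86%), and in DESeq2 or limma-voom 0 passed. The sensing genes were led by Irf8 (log2 fold change -0.44), which is also a marker of plasmacytoid dendritic cells, Unc93b1, the chaperone of nucleic acid-sensing Toll-like receptors (-0.70), Irf5 (-0.83) and Irf3 (-0.30). Irf5 measured 61.7 CPM in control mouse 1601 and 31.2 to 32.2 CPM in the other control mice, against 22.3 to 25.7 CPM in MLKL ASO mice. Unc93b1 was highest in mouse 1601 too, at 423, 239 and 243 CPM in control mice 1601, 1602 and 1608. Irf8 and Irf3 were not. In the same order of control mice, Irf8 measured 334, 330 and 413 CPM and Irf3 109.6, 121.5 and 117 CPM. Mouse 1601 also held the highest summed levels of 10 B cell markers (2418 CPM) and of 10 conventional dendritic cell markers (672 CPM). In the remaining mice these sums were 778 to 1412 CPM and 315 to 440.0 CPM, and their part in the sensing genes was not tested.

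Transcripts of the interferons themselves were scarce. Of the 20 ligand genes listed, 7 are in the table, and 1 of them (Ifnz) had enough reads to be tested. Ifnb1, which encodes interferon-β, had 14 reads in mouse 1603 and 10 in mouse 1607 of the MLKL ASO group, and 1 in control mouse 1608. Reads were 0 in mice 1601, 1602 and 1604, which allows up to 0.0365, 0.0365 and 0.0452 CPM by counting error alone, taking 3 reads as the upper limit. Ifnb1 and the 5 Ifna genes in the table (Ifna1, Ifna2, Ifna4, Ifna5 and Ifna16) summed to 95.1 estimated counts in mouse 1603 and 181 in mouse 1607. The sums were 5 in mouse 1601, 7 in mouse 1602 and 9 in mouse 1608, and 0 in mouse 1604. Reads of the interferon-α genes are uncertain by gene, since these genes are near-identical copies and estimated counts split reads between them. Mouse 1604, with 0 reads in that sum and an estimated 30.0 of Ifnz, held the highest level of 13 of the 35 interferon-stimulated genes, more than any other mouse. The ligand reads were few in every mouse, and their relation to the levels of the 35 genes was not tested.

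Among the RNA sensors, Ifih1 was the gene whose groups did not overlap. Differences between it and its relatives were not tested. Ifih1 encodes MDA5, the helicase that senses long double-stranded RNA, and measured 40.5, 43.2 and 50.8 CPM in control mice 1601, 1602 and 1608. In mice 1603, 1604 and 1607 it measured 59.7, 70.0 and 59.2 CPM, above every control mouse (log2 fold change 0.49, SE 0.14, edgeR adjusted p = 0.325). Its relatives overlapped between the groups. Ddx58, which encodes the sensor RIG-I, ranged from 64.7 to 95.0 CPM in control and from 79.3 to 86.8 CPM in MLKL ASO mice. Dhx58 (LGP2, a regulator of these sensors) stayed within 40.2 to 47.3 CPM over all 6 mice, with a log2 fold change of 0.04 and a 95% interval of -0.24 to 0.32. Ddx60 ranged from 21.9 to 34.7 CPM. Eif2ak2 encodes PKR, which halts translation on binding double-stranded RNA, and measured 35.6, 38.7 and 48.0 CPM in control mice against 56.1, 57.6 and 58.9 CPM in MLKL ASO mice. The MLKL ASO mice were close together and all higher (log2 fold change 0.50, SE 0.14, edgeR adjusted p = 0.326).

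The IFIT genes, whose proteins bind foreign RNA ends, formed the family in which all members separated the groups. All MLKL ASO mice were higher for each, where 8.73% of all genes tested were. Ifit3 measured 68.6, 67.7 and 63.7 CPM in control mice 1601, 1602 and 1608 and 103, 97.4 and 86.8 CPM in mice 1603, 1604 and 1607. The gap between the groups exceeds the range within either, and the log2 fold change was 0.52 (SE 0.11), with an adjusted p of 0.269 in edgeR and 0.00911 in DESeq2. Ifit1 measured 39.8, 39.2 and 42.2 CPM in control and 53.2, 62.2 and 47.2 CPM in MLKL ASO mice (log2 fold change 0.42, SE 0.13). For Ifit2 the values were 31.5, 28.5 and 40.4 CPM against 50.7, 43.0 and 45.7 CPM (log2 fold change 0.47, SE 0.16). Mouse 1608 was the control mouse nearest to the MLKL ASO group for Ifit1 and Ifit2, and the lowest of all for Ifit3.

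Read sharing bears on this family. In the GENCODE M21 transcripts, 61.8% of the 31-base words of Ifit3 also occur in Ifit3b, and 10.5% of those of Ifit1 occur in other genes, mainly Ifit1bl2. Ifit3b, a near copy outside the list, was higher too, at 17.1 to 17.3 CPM in control and 23.0 to 26.3 CPM in MLKL ASO mice, with a log2 fold change of 0.52 (DESeq2 adjusted p = 0.00435). Ifit1bl2 was low and higher in MLKL ASO mice, at 1.20 to 1.37 against 2.64 to 3.18 CPM (DESeq2 adjusted p = 0.000205). How reads were divided between these copies is uncertain, so the values of a gene and of its copy are not independent of each other. Over the 35 genes the median share of such words was 0.558%, and 7 genes exceeded 10%, among them Isg15 (12.8%) and Rtp4 (12.5%, shared with the predicted gene Gm45338).

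OAS genes encode enzymes that make the second messenger of RNase L, or relatives of these enzymes. All 5 had log2 fold changes above 0, where 48% of all genes did. In 2 of them all MLKL ASO mice were higher, where 8.73% of all genes were. Oasl2 measured 51.6, 47.1 and 62.4 CPM in control mice 1601, 1602 and 1608 and 67.9, 87.9 and 71.8 CPM in mice 1603, 1604 and 1607. Here too mouse 1608 was the nearest control and mouse 1604 the highest (log2 fold change 0.50, SE 0.16, edgeR adjusted p = 0.346). Oas1a measured 52.4, 48.3 and 39.3 CPM in control and 56.6, 62.2 and 52.9 CPM in MLKL ASO mice, separated by less than 1 CPM between mice 1601 and 1607. As 68.7% of its 31-base words also occur in Oas1g, which measured 4.10 to 6.99 CPM in control and 6.79 to 10.2 CPM in MLKL ASO mice, reads cannot be assigned to 1 copy with certainty. Oasl1, a translational repressor of Irf7, measured 13, 10.6 and 11.0 CPM against 14.1, 12.8 and 13.2 CPM. Oas2 measured 9.11, 4.77 and 5.24 CPM against 5.39, 9.95 and 11.2 CPM, and Oas3 ranged from 4.69 to 16.3 CPM over the 6 mice. The last 3 overlapped between the groups.

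Both Mx genes had log2 fold changes below 0. They encode dynamin-like GTPases that trap viral particles, and Mx1 is defective in many laboratory strains. Mx1 measured 5.84, 4.99 and 3.14 CPM in control mice 1601, 1602 and 1608 and 2.54, 2.55 and 3.45 CPM in mice 1603, 1604 and 1607. Mouse 1607 overlapped with control mouse 1608, and the log2 fold change was -0.71 (SE 0.30, edgeR adjusted p = 0.412). Mx2 ranged from 3.42 to 7.91 CPM in control and from 4.70 to 5.35 CPM in MLKL ASO mice. Both were at low levels, and 12.1% of the 31-base words of Mx2 occur in Mx1.

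The ISG15 system attaches this ubiquitin-like protein to others and removes it again. Isg15 measured 75.9, 49.4 and 50.9 CPM in control mice 1601, 1602 and 1608 and 86.8, 134 and 77.3 CPM in mice 1603, 1604 and 1607. The lowest MLKL ASO mouse lay just above control mouse 1601, and mouse 1604 far above all (log2 fold change 0.76, SE 0.26, edgeR adjusted p = 0.359). Usp18, the protease that removes ISG15 and blocks signalling at IFNAR2, measured 55.1, 61.2 and 69.4 CPM in control and 79.7, 96.0 and 78.4 CPM in MLKL ASO mice. Its log2 fold change was 0.45 (SE 0.14), opposite in sign to that of Socs1. Herc6, the ligase that attaches ISG15 in the mouse, measured 46.2, 48.0 and 61.3 CPM against 71.4, 80.0 and 62.3 CPM. Mice 1608 and 1607 nearly met there, and 25% of its 31-base words occur in the predicted gene Gm45193. Trim25, a ubiquitin ligase for RIG-I, overlapped at 63.0 to 79.7 CPM over the 6 mice, with a log2 fold change of -0.035 and a 95% interval of -0.33 to 0.26.

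The PARP genes, which encode ADP-ribosyltransferases and their partners, overlapped between the groups in all 3 cases. Parp9 measured 36.5, 30.8 and 42.4 CPM in control and 39.2, 49.5 and 40.1 CPM in MLKL ASO mice. Parp12 measured 12.2, 15.7 and 11.2 CPM against 11.7, 12.6 and 9.69 CPM. For Parp14 control mouse 1608, at 65.5 CPM, was above every other mouse (38.0 to 52.6 CPM).

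Of the 11 other effectors, 6 were higher in every MLKL ASO mouse, where 8.73% of all genes tested were. Rtp4 encodes an interferon-induced zinc finger protein with antiviral activity, and had the smallest p of the 35 genes. It measured 79.3, 88.9 and 99.5 CPM in control mice 1601, 1602 and 1608 and 135, 133 and 138 CPM in mice 1603, 1604 and 1607. The mean was 1.52-fold higher, 89.2 ± 10.1 CPM (SD, n = 3) against 135 ± 2.86 CPM (SD, n = 3), and the MLKL ASO mice differed from each other by far less than from any control mouse. The log2 fold change was 0.60 (SE 0.12), with an adjusted p of 0.237 in edgeR, 0.00152 in DESeq2 and 0.0656 in limma-voom. Rtp4 kept a log2 fold change of 0.53 to 0.68 when any single mouse was left out.

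Ifi44, an antiviral protein of the cytosol, measured 23.4, 29.3 and 49.6 CPM in control and 62.8, 56.4 and 63.4 CPM in MLKL ASO mice. Control mouse 1608 lay near the MLKL ASO group, and the log2 fold change was 0.84 (SE 0.27) with it and 1.21 without it. Xaf1, a binding partner of the caspase inhibitor XIAP, measured 64.3, 78.5 and 80.3 CPM against 99.8, 97.3 and 101 CPM, a log2 fold change of 0.42 (SE 0.12). Samd9l, a translation-blocking antiviral protein, measured 127, 118 and 142 CPM against 155, 144 and 144 CPM, so that the groups were close to touching (log2 fold change 0.20, SE 0.11). Overlap was seen for Cmpk2, the nucleotide kinase gene next to Rsad2 (43.9 to 80.3 CPM over the 6 mice), and for Ifi27l2a (70.3 to 149.7 CPM). Ifi35 (187 to 235 CPM) and Bst2 (tetherin, which holds budding virions at the membrane, 242 to 415 CPM) overlapped as well. Bst2 is also a marker of plasmacytoid dendritic cells, and all 11 markers listed for those cells had log2 fold changes below 0, with a median of -0.86. Their summed level was 956 to 1316 CPM in control and 905 to 971 CPM in MLKL ASO mice. Bst2 itself and Irf8 (260 to 413 CPM over the 6 mice) are among the 11 and hold a large part of this sum. The part of these cells in the level of Bst2 was not tested.

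**Figure D3:**
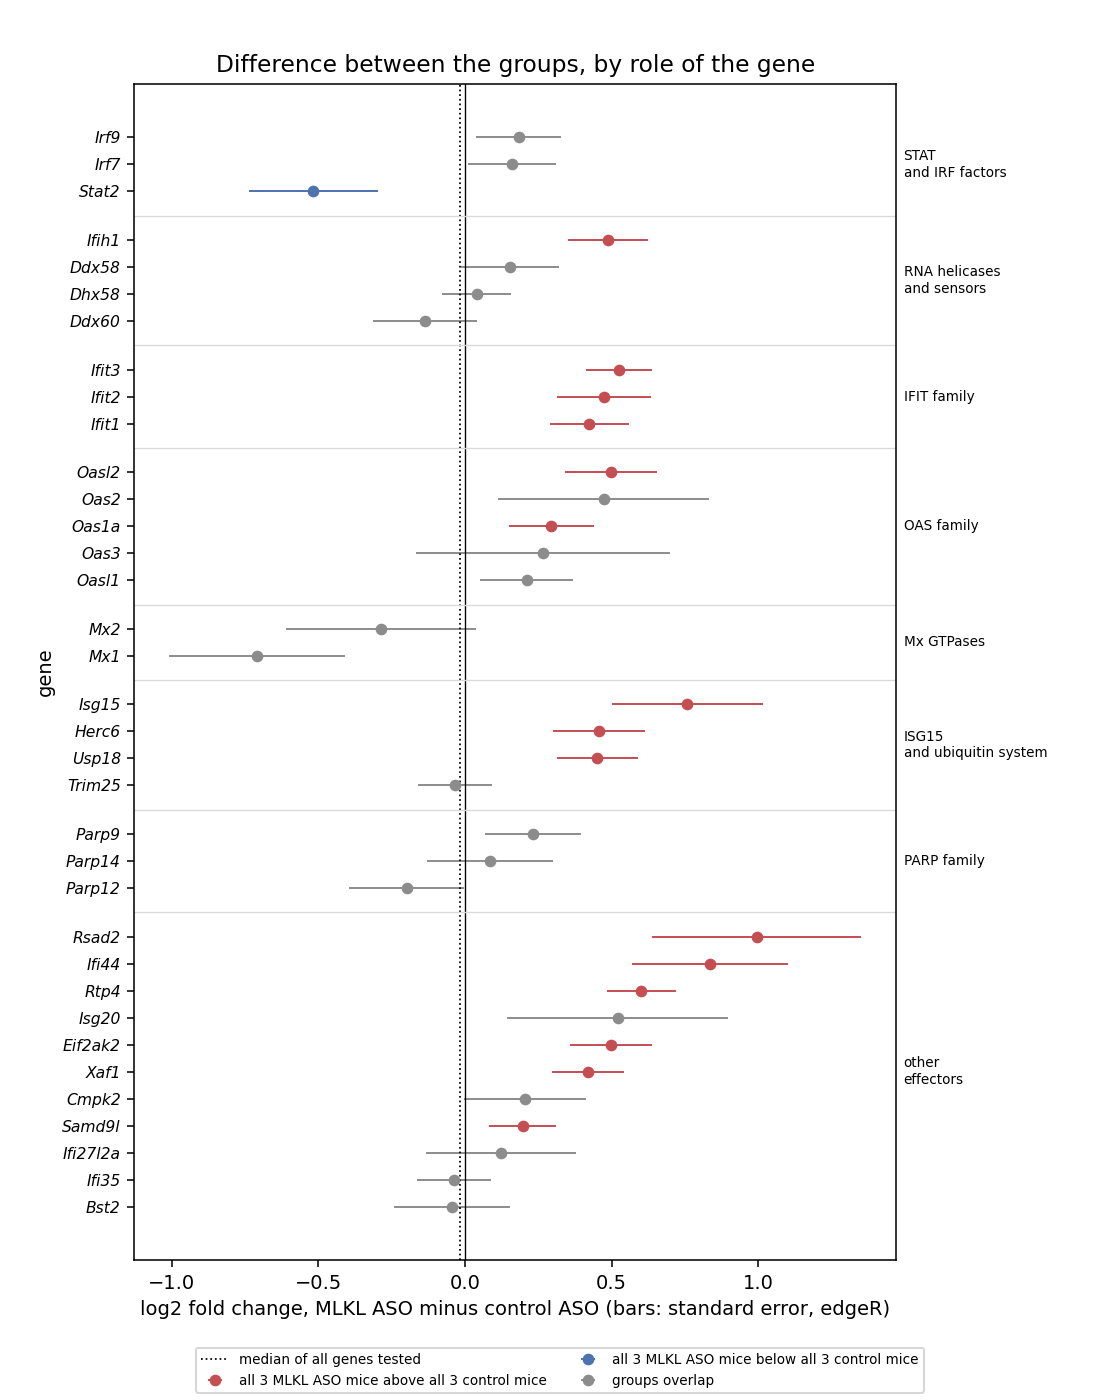
Log2 fold change of each gene (MLKL ASO minus control ASO), ordered by role, with bars for the standard error in edgeR and a dotted line at the median of all genes tested. Red marks the 15 genes with all MLKL ASO mice above all control mice, blue marks Stat2, and grey the 19 whose groups overlap.

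Rsad2 and Isg20 differed widely between mice of the same group. Rsad2 encodes viperin, which makes a chain-terminating nucleotide, and measured 169.9, 83.9 and 115 CPM in control mice 1601, 1602 and 1608 and 181, 372 and 182 CPM in mice 1603, 1604 and 1607. Its log2 fold change of 0.99 (SE 0.36, edgeR adjusted p = 0.368) was the largest of the 35 with all mice, and it was 0.55 without mouse 1604. Isg20, an RNA exonuclease, measured 131, 74.5 and 46.7 CPM in control and 109, 161 and 91.9 CPM in MLKL ASO mice, which overlap.

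Genes of red cell precursors and of neutrophils were highest in the same mice. Summed over 14 erythroid genes, the level was 126900, 50546 and 47214 CPM in control mice 1601, 1602 and 1608 and 82032, 159100 and 70290 CPM in mice 1603, 1604 and 1607. All 14 had log2 fold changes above 0, with a median of 0.63. The mice stood in the same order for the erythroid sum as for Isg20, the only 1 of the 35 genes with that order. Summed over 12 neutrophil genes, the level was 1913, 543 and 266 CPM in control and 748, 2075 and 1212 CPM in MLKL ASO mice, again highest in mouse 1604 and next in mouse 1601, and 11 of the 12 had log2 fold changes above 0. Rsad2 and Isg15 were highest in mouse 1604 too, while mouse 1601 was the highest control. Rtp4, Eif2ak2 and Xaf1 differed little between mouse 1604 and the other MLKL ASO mice. For 20 of the 35 genes mouse 1604 was the highest of that group. Whether blood cells in the samples account for part of any of these values was not tested.

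**Figure D4:**
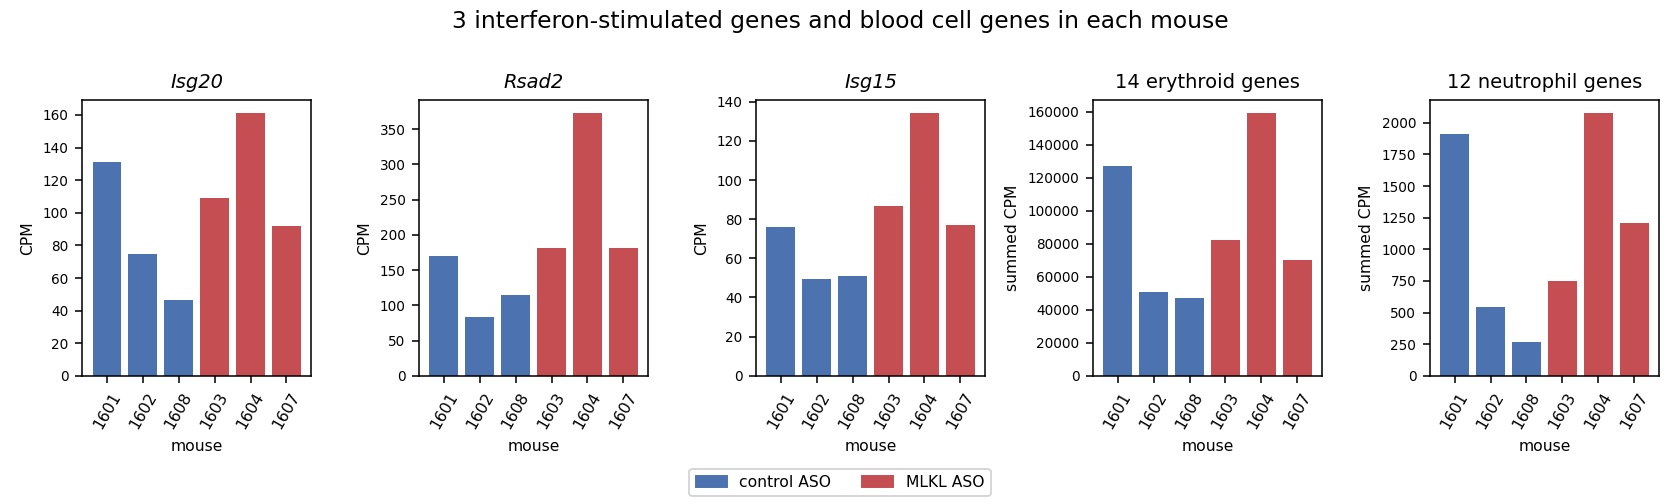
CPM of Isg20, Rsad2 and Isg15 and summed CPM of 14 erythroid and 12 neutrophil genes, with 1 bar per mouse (blue, control ASO; red, MLKL ASO). Mouse 1604 has the highest bar in all 5 panels and mouse 1601 the highest of the control mice.

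Within the MLKL ASO group mouse 1604 held the highest value of 20 of the 35 genes and mouse 1607 the lowest of 19. Within the control group mouse 1608 held the highest value of 20 and mouse 1602 the lowest of 16. Stat2, Irf9, Ddx58, Trim25, Parp14 and Bst2 reached their highest level of all mice in control mouse 1608. That mouse also had the highest sum of 12 endothelial markers, 5024 CPM against 2639.5 to 3880 CPM in the other mice, and the lowest sum of 11 megakaryocyte and platelet markers, 113 CPM against 1117 to 2914 CPM. The part of cell composition in these levels was not tested. Without mouse 1608, 18 members were higher in every MLKL ASO mouse, while 16.8% of all genes then were. Without mouse 1604, 14 members were higher (12.6% of all genes), and without mouse 1602 also 14 (13.4%). Over the 6 runs that each left out 1 mouse, 12.6% to 16.8% of all genes were higher and 13.5% to 17.7% lower in every MLKL ASO mouse. The median log2 fold change of the 35 was 0.14 without mouse 1602. At an unadjusted p under 0.05, 7 members were higher without mouse 1604 (2.56% of all genes), where 13 were with all mice.

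Levels can be compared between genes only per length. Per kilobase of the median coding transcript in GENCODE M21, Bst2 stood highest in control mice, with a mean of 427 CPM per kilobase. It was followed by Ifi27l2a (236) and Ifi35 (156). The lowest were Oas2 (1.65), Mx2 (2.51) and Mx1 (2.57 CPM per kilobase). Oas2, Mx2 and Mx1 overlap within their spread. The 3 genes with the highest level per length overlapped between control and MLKL ASO mice.

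Other interferon genes were set beside the 35 from lists of gene names. Of 76 further interferon-stimulated genes in the table, 38 had log2 fold changes above 0 and 38 below, with a median of 0.0042. In 11 of these all MLKL ASO mice were higher (8.73% of all genes were) and in 6 all were lower (10% of all genes). In edgeR 0 of the 76 passed, with 8 higher (4.86% of all genes were) and 4 lower (7.13%) at the unadjusted threshold. By DESeq2, 3 were higher (1.09% of the genes it tested were) and 0 lower (1.33%), and by limma-voom 0 passed. The 3 were Ifit1bl2, Ifit3b and Slfn9, a Schlafen family gene, which measured 7.85 to 11.6 CPM in control and 15.7 to 17.7 CPM in MLKL ASO mice. Ms4a6d, a membrane protein gene of the same list, measured 7.78 to 15.5 CPM against 17.0 to 27.2 CPM (log2 fold change 1.02, edgeR adjusted p = 0.336). Of 24 GTPases and other targets of interferon-γ, 9 were above 0 (48% of all genes were), with a median of -0.067. At the unadjusted threshold 2 of the 24 were lower, near the 7.13% of all genes, and 0 were higher. Among these 24, 0 passed in edgeR or limma-voom, and DESeq2 called Irf1 lower (1.33% of the genes it tested were). Irf1 measured 99.7 to 142 CPM in control and 66.0 to 74.5 CPM in MLKL ASO mice, a log2 fold change of -0.68 (SE 0.16, DESeq2 adjusted p = 0.0293). T and NK cells make interferon-γ, and all 14 of their markers listed had log2 fold changes below 0. Their sum was 761, 431 and 309 CPM in control mice 1601, 1602 and 1608 and 208 to 284 CPM in MLKL ASO mice. Irf1 ran in the opposite order in those control mice, at 99.7, 101.5 and 142 CPM. The part of these cells in the level of Irf1 was not tested. Ciita, the activator of MHC class II genes, measured 26.9 to 76.0 CPM in control mice, highest in mouse 1601, and 21.3 to 25.3 CPM in MLKL ASO mice (log2 fold change -1.03, edgeR adjusted p = 0.359). Macrophage markers (14 genes) summed to 850.0 to 1765 CPM and 1017 to 1375 CPM, and overlapped.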

How the data were processed

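Bulk RNA was measured in 6 libraries, 3 per group, 1 per mouse. Per the submitters' processing notes, fastp 0.20.1, Salmon 1.3.0 and DESeq2 were used; for the counts, a build and an annotation were not given in the sources used here. The authors deposited estimated counts per gene symbol (69.3% of the values are not whole) and a DESeq2 table with a mean normalised signal, a log2 fold change with its standard error, a Wald score, and p-values per row, per the file headers. Its direction was settled from the data: over 19724 genes its fold changes correlated with those computed here at r = 0.978. The counts were rounded, and 4 rows named by a number were left out. R 4.3.3 and edgeR 4.0.16 were used with the default expression filter, TMM and the two-sided quasi-likelihood test, with Benjamini-Hochberg adjustment over 19741 genes and a threshold of 0.05. SEs are derived from the F statistic. DESeq2 1.42.0 and limma 3.58.1 were alternatives. For single genes, 3 mice against 3 cannot go below p = 0.1 in an exact two-sided permutation test. The fits were also run on simulated data, and the outcome is not reported here.

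The members and lists were chosen with earlier results of these data known. Values in every mouse are given for 9 members fixed by name and for the 15 further members with the smallest p, and for the rest ranges; from other lists up to 4 genes with the smallest p, and Ifnb1, Ifnar1, Ifnar2, Jak1, Tyk2 and Irf1. Not every gene that this rule names in the other lists is reported here. Genes named beyond this were chosen after their values were seen. Word sharing was counted over 31-base words of GENCODE M21 transcripts, which need not be the authors' annotation.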

Additional observations from a re-analysis of the deposited data

How the results depend on the processing

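Over the 14 alternatives run, 27 of the 35 members kept the sign of their log2 fold change. For the other 8 the sign turned when 1 mouse was left out: over these runs Parp14 ranged from -0.053 to 0.38, Oas3 from -0.085 to 0.81, Bst2 from -0.23 to 0.13, Ifi35 from -0.12 to 0.045, Dhx58 from -0.015 to 0.11, Ddx60 from -0.22 to 0.016, Ifi27l2a from -0.12 to 0.42 and Trim25 from -0.098 to 0.074. Trim25 was also at 0.052 in limma-voom with sample weights. The cause was not tested. Leaving out each mouse gave 0 to 10 genes higher and 0 to 9 lower in the whole table, a median of the members of 0.14 to 0.34, 26 to 28 members above 0, 14 to 18 without overlap and higher, and 1 to 2 without overlap and lower. The second was Mx2 without mouse 1601 and Mx1 without mouse 1607 or 1608. Of all genes, 12.6% to 16.8% were higher without overlap in these runs and 13.5% to 17.7% lower. In these runs 0 members were called.

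Counts of genes called higher and lower in the whole table were 2 and 2 with upper quartile scaling, 5 and 4 with library totals only, 237 and 290 in DESeq2, and 9 and 15 in limma-voom with sample weights. DESeq2 called 2 members higher. The median of the members was 0.37 in limma-voom. Without overlap, 13 to 15 members were higher over the scalings and filters, an alternative chosen after seeing the data. The share of all genes was 8.73% in the main fit and is not reported here for the other settings. No scaling moved the median of all genes by over 0.1. No paired analysis was possible because mouse numbers do not recur between the groups. All members had reads in every library, the fewest being 157 estimated counts of Mx1 in mouse 1603. The interferon ligands had far fewer. The effect of depth on either was not tested.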
